A study of Caenorhabditis elegans with 2 samples.

Results

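The 300 strongest NFYA-1 peaks of L3 Caenorhabditis elegans are described here. They were selected on signal, the height that the authors' peak calling gave each region, as the highest 300 of the 6932 peaks in the list thresholded by irreproducible discovery rate (IDR), which keeps regions ranked alike in both replicates. Chromatin was immunoprecipitated with an anti-GFP antibody from whole hermaphrodites of strain OP404, genotype unc-119(tm4063) III; wgIs404, in which the integrated transgene codes for NFYA-1 with GFP and FLAG at its C terminus. There was 1 group of 2 biological replicates, each called against a control and deposited also as a relaxed list of 30000 regions. The cells were those of the entire larva, so binding in a single tissue cannot be told apart from binding in many. No untagged strain was analysed here, and read depth is unknown, because the peak lists hold no counts.

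NF-Y is a trimer in which 2 histone-fold subunits hold the DNA and the A subunit reads the CCAAT box. It is known in animals for promoters of housekeeping genes and of endoplasmic reticulum chaperones, and in the worm for control of Hox and T-box genes. NFYA-1 is one of the worm's A subunits. The account below is mainly of ranks 15 to 300.

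The sequences below show the kinds of site found beyond rank 14. All are from ce11 (RefSeq WBcel235) and run 50 bp to either side of the summit, the base of highest signal in the peak, 5′ to 3′ on the strand named. The first set holds the 4 strongest peaks beyond rank 14 with an extended CCAAT motif and no sequence shared with another peak. Capitals mark that motif, which is a purine, a purine, CCAAT, C or G, and a purine.

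Rank 15, chrIII:8529069-8529169, minus strand, 953 bp upstream of ZC21.10: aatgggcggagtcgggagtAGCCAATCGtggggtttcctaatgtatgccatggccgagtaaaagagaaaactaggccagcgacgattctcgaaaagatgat
Rank 19, chrX:4960513-4960613, plus strand, 58 bp upstream of act-4: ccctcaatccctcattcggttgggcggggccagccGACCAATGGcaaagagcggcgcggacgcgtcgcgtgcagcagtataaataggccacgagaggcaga
Rank 21, chrIV:8431711-8431811, minus strand, intron of T26A8.4: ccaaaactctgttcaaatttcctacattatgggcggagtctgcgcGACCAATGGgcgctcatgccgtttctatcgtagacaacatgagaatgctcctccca
Rank 23, chrIV:11125358-11125458, plus strand, between spo-11 and swsn-4: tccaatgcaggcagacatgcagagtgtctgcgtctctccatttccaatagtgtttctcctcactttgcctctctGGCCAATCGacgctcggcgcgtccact

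The second set holds 4 of the strongest with neither CCAAT nor shared sequence; rank 16, at cox-5B, is of the same kind and is not printed. All 4 contain ACCGTA, which is in capitals and which was found to recur only after the sequences had been examined.

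Rank 17, chrX:15841221-15841321, plus strand, 301 bp upstream of serp-1.1: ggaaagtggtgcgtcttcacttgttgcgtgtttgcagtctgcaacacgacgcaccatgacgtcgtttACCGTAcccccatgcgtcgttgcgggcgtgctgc
Rank 22, chrV:14364673-14364773, plus strand, 214 bp upstream of mir-48: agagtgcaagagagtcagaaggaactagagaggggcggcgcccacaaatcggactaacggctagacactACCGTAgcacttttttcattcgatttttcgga
Rank 26, chrIV:4750015-4750115, plus strand, between rpl-20 and Y17G9B.5: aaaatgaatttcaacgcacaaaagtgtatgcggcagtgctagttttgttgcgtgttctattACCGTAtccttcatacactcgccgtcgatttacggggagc
Rank 28, chrV:9731145-9731245, plus strand, intron of drap-1: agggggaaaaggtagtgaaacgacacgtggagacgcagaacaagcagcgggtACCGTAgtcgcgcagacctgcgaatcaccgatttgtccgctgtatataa

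The third set shows 3 members of the largest group of peaks that share sequence, a dispersed repeat. Capitals again mark the extended motif. The printed windows of ranks 41 and 46 hold 2 whole copies of it each, on opposite strands at rank 46.

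Rank 24, chrV:11503489-11503589, minus strand, 408 bp upstream of C55A6.12: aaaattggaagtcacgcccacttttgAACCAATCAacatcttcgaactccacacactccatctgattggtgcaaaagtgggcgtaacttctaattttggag
Rank 41, chrII:3930637-3930737, minus strand, intergenic, no gene within 1 kb: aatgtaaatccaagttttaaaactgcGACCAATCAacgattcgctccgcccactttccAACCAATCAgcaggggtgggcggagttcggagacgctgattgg
Rank 46, chrIII:3798592-3798692, plus strand, intron of mtm-3: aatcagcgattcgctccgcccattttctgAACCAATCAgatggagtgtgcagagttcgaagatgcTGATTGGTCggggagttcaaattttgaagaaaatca

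The last set shows peaks whose shared sequence is not a CCAAT box, 3 in promoters of protein-coding genes and 1 at a spliced leader RNA gene. Capitals mark a 12-base element in the peaks of ranks 29 and 35, ACCGTA at rank 165, and the first bases of the annotated spliced leader RNA gene sls-2.1 at rank 107. At ranks 165 and 107 the capitals do not mark the shared sequence. The other members of the group of rank 165, ranks 14 and 182, had no ACCGTA within 50 bp of the summit.

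Rank 29, chrIV:8432911-8433011, plus strand, between T26A8.4 and pdtf-1: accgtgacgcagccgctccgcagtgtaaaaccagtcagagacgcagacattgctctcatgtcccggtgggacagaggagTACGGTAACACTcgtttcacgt
Rank 35, chrX:2242927-2243027, plus strand, 359 bp upstream of rpl-11.2: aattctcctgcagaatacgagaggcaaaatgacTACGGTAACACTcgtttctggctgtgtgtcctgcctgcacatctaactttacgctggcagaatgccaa
Rank 165, chrIV:11149734-11149834, plus strand, between F01G4.6 and pfd-1: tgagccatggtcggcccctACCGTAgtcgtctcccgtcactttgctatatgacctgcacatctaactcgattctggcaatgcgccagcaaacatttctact
Rank 107, chrII:5844784-5844884, plus strand, 31 bp upstream of sls-2.1: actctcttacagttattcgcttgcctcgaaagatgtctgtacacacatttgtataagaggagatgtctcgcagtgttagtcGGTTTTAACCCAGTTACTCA

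The 300 peaks spanned a wide range of signal, most of it within the first few ranks. Signal is the authors' own value on a scale that the files do not state, and it was compared only within a list. It was 12400.7 at rank 1, 2571.4 at rank 15, 720.9 at the median and 554.3 at rank 300, a 22.4-fold span, and 18 peaks exceeded 2000. The median of all 6932 IDR peaks was 121.0. The last 3 peaks inside the limit, a repeat copy near inx-18 and peaks upstream of rps-14 and vig-1, had signals of 556.0, 555.4 and 554.3. The next 3 below it, upstream of ire-1, in an intron of zip-2 and in an intron of pqn-41, had 554.2, 553.2 and 552.8. The −log10 q value stood at the same 4.17 in all 300 and gave no order among them. Peak widths ran from 247 to 1239 bp, with a median of 333 bp.

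Most summits lay outside genes, and none lay in a coding exon. Of the 300 summits, 180 were intergenic (60%, 95% Wilson interval 54.4 to 65.4), against 57.4% of the 6632 IDR peaks outside the 300 and 57.5% of all IDR peaks. Introns held 80 of the 300 (26.7%) and 29.5% of the others, and noncoding genes held 25 (8.33%) and 6.44%. Annotated 5′ UTRs held 10 and 3′ UTRs held 5. Coding exons held 0 of 300, which allows a share of up to 1.26%, against 120 of 6632 (1.81%), a difference of -1.81 percentage points (Newcombe 95% interval -2.16 to -0.511). For intergenic summits the difference was 2.58 points (-3.18 to 8.1) and for introns -2.81 points (-7.63 to 2.57), so for neither does the interval exclude 0. Both calls changed among peaks that share no 20-bp sequence with another IDR peak. Of 170 such members 67.6% were intergenic, against 59.8% of 4753 outside, a difference of 7.83 points (0.348 to 14.6), and 17.1% were intronic, against 26.5%, a difference of -9.41 points (-14.5 to -2.92). All such intervals cover counting error only, and peaks are not replicates.

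The strongest peak beyond rank 14 in each class showed the variety of settings. The intergenic one was rank 15 and the noncoding one was rank 48, at a noncoding gene beside rps-1. The intronic one was rank 21, 1132 bp downstream of the start of T26A8.4, which codes for a C3H1 zinc finger protein. In 5′ UTRs it was rank 65, 2 bp downstream of the start of atp-1, the gene of the ATP synthase alpha subunit. In 3′ UTRs it was rank 18, a repeat copy in the 3′ UTR of the bZIP gene zip-1, 175 bp from the phosphatase gene pph-4.1.

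Promoters were more frequent among the 300 than in the rest of the list pooled, but not than in the next 300 peaks. A protein-coding start lay within the promoter window, from 500 bp upstream to 200 bp downstream, at 136 summits (45.3%, interval 39.8 to 51), against 36.6% of the peaks outside the 300 and 36.9% of all. The difference was 8.78 points (3.12 to 14.6). In ranks 301 to 600 the share was 46%, so the level is not particular to the 300. Among peaks without shared sequence, the share was 54.1% of 170 members and 38.1% of 4753 others, a difference of 16 points (8.37 to 23.4). With peaks ranked in a single replicate the share was 47.3% of the top 300 of replicate 1 and 42.7% of the top 300 of replicate 2. A protein-coding gene body lay within 1 kb of 253 summits (84.3%), against 79.7% outside and 79.9% of all IDR peaks, a difference of 4.61 points (-0.0287 to 8.42). The summit was within 1 kb of a protein-coding start in 173 peaks, at a median of -200 bp, and in 69 peaks it lay upstream of genes that diverge from it on both sides. Annotated worm starts are often the trans-splice site, downstream of the place where transcription begins.

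**Figure D1:**
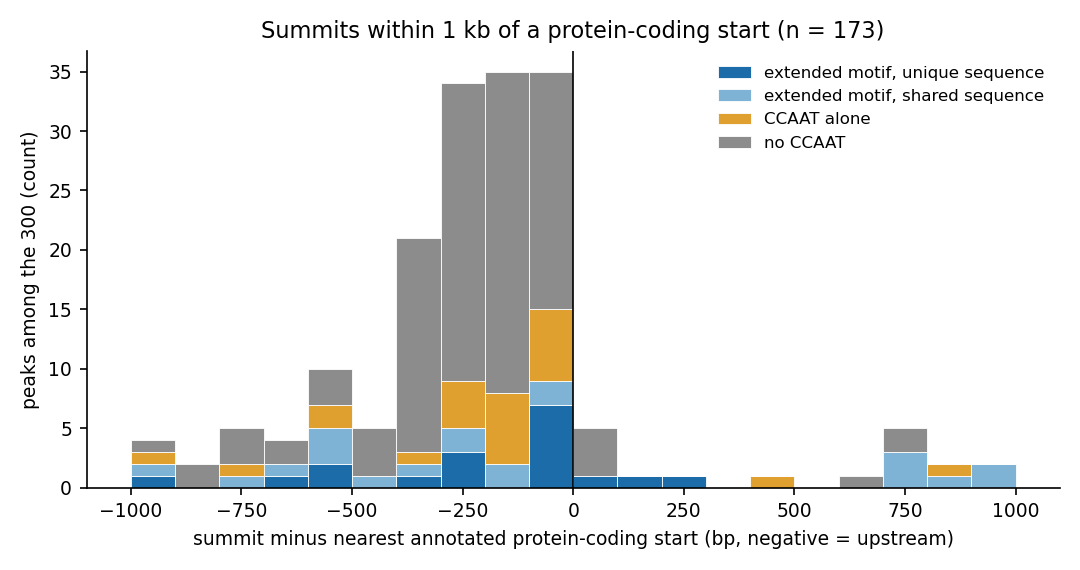
Number of the 300 summits (vertical axis) by distance in bp to the nearest annotated protein-coding start (horizontal axis, negative upstream, 100-bp bins), for the 173 summits within 1 kb. Colours give the sequence at the summit; the grey peaks without CCAAT make up most of the summits upstream of starts, with a median of -216.5 bp.

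The 300 peaks had 515 genes of any type other than piRNA within 1 kb, of which 393 were protein-coding, or 1.97% of the 19973 annotated. No gene lay within 1 kb of 36 peaks and no protein-coding gene near 47, while 117 had 1 such gene and 136 had 2 or more. Of the 36 peaks with no gene, 21 held CCAAT, 11 the extended motif and 16 GAGAGA, where 50.3%, 35% and 24.7% of the 300 did. A 20-bp sequence was shared with another IDR peak at 14 of the 36. The strongest of the 36 were rank 13, an intergenic peak on chromosome IV that is the single peak among the first 14 without the extended motif, and the repeat copy of rank 41. The genes other than protein-coding ones were 87 ncRNAs, 19 snoRNAs, 5 lincRNAs, 5 snRNAs, all spliced leader RNA genes, 4 miRNAs and 2 pseudogenes. Among protein-coding genes, 13 had 2 peaks of the 300 within 1 kb, including the Meis-type homeobox gene unc-62 (ranks 31 and 258), the G protein gene egl-30 (ranks 53 and 118) and the chromatin gene zfp-1 (ranks 157 and 215).

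CCAAT boxes were concentrated at these summits. The pentamer lay within 50 bp of 151 of the 300 summits on either strand (50.3%, interval 44.7 to 56), against 26.6% outside the 300 and 27.6% of all IDR peaks, a difference of 23.7 points (18 to 29.4). In windows of equal width 300 bp away it was at 15.3% and 20% of the same peaks. In ranks 301 to 600 the pentamer was at 35.3% of summits. The extended motif was at 105 summits (35%, interval 29.8 to 40.6), against 10% outside and 11.1% of all IDR peaks, a difference of 25 points (19.7 to 30.6), and at 1.33% and 1% of the flanking windows. At least 2 extended motifs were at 64 summits (21.3%), against 5.05% outside the 300. Of the IDR peaks with no extended motif, 3.17% were among the 300. With 1 it was 11%, with 2 13.2% and with 3 26.7% (20 of 75, interval 18 to 37.6). Of the 64 members with at least 2, 48 were copies of 1 repeat described below, and 17 of these copies held at least 3. The interval treats such copies as independent. Extended motifs within 100 bp were close to the summit, at a median of 22 bp over 224 sites.

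Below the first 14, strength and the motif were not closely tied within the 300. The extended motif was at 13 of the first 14 peaks and at 12 of 36 in ranks 15 to 50. It was at 17 of 50 in ranks 51 to 100, 28 of the next 100 and 35 of the last 100. In ranks 301 to 600 it was at 20.7% and in the rest of the list at 9.54%. GAGAGA was no more frequent in the 300, with 74 summits (24.7%), against 28.5% outside and 28.4% of all IDR peaks, a difference of -3.86 points (-8.53 to 1.43), and with 0 among the first 14. It was still at more summits than flanks, where 7% and 7.33% of the windows held it.

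**Figure D2:**
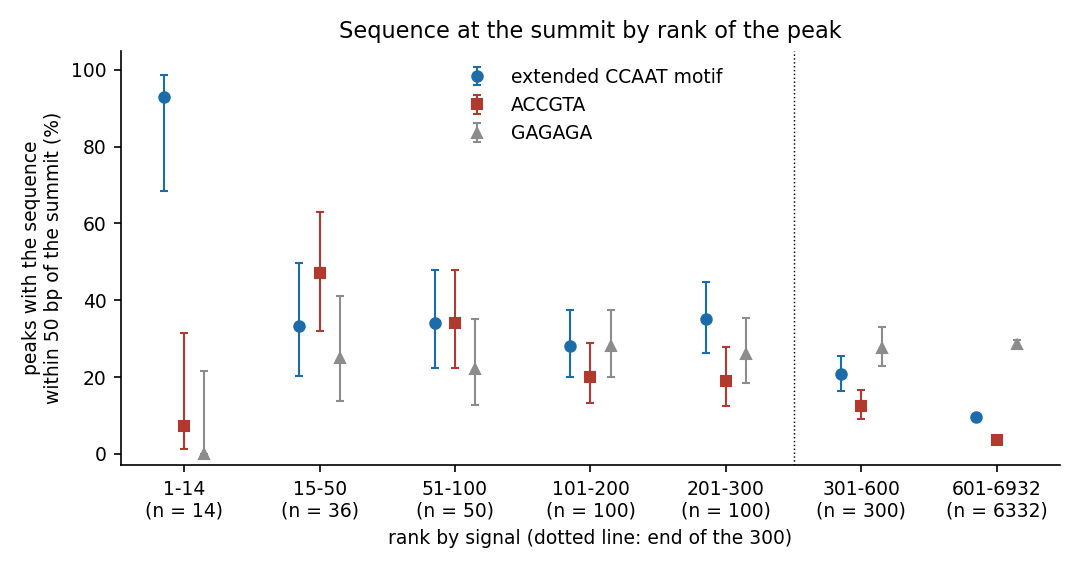
Share of peaks (vertical axis, percent, with 95% Wilson intervals) that hold the extended CCAAT motif, ACCGTA or GAGAGA within 50 bp of the summit, by rank of signal (horizontal axis, with the number of peaks). The extended motif was at 13 of the first 14 peaks, ACCGTA was most frequent in ranks 15 to 50, and GAGAGA stayed near its level in the rest of the list from rank 15 on.

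Sequence and annotation went together, and the 300 are described from here on in 4 kinds that were set after the data had been seen. Shared sequence means that at least 20 bp within 100 bp of the summit recur near the summit of another IDR peak. It was found at 130 of the 300 (43.3%, interval 37.8 to 49), against 28.3% outside and 29.0% of all IDR peaks, a difference of 15 points (9.4 to 20.8). In ranks 301 to 600 it was at 37%. Without the largest group of members that share sequence, a repeat described below, it was at 71 of 241 (29.5%). Copies of that repeat remain in the share outside. The extended motif occurred in unique sequence at 28 peaks and in shared sequence at 77. CCAAT without the extended motif was at 46 peaks, and 149 had no CCAAT within 50 bp. The median signals of these kinds were close, at 875.6, 733, 729.4 and 699.4 in that order.

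**Figure D3:**
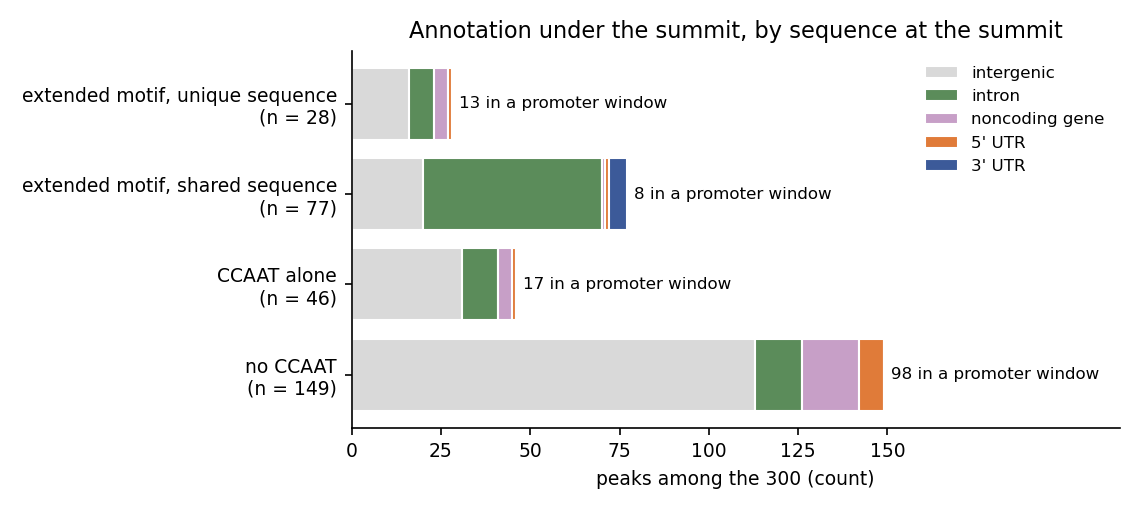
Number of the 300 peaks (horizontal axis) in each annotation class under the summit, for the 4 kinds of sequence at the summit (rows, with n). Of the 77 peaks with the extended motif in shared sequence 50 were intronic and 8 lay in a promoter window, while 98 of the 149 peaks without CCAAT lay in one.

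Peaks with the extended motif in unique sequence were few, and some were among the strongest. They supplied 8 of the first 14 and 12 of the first 50 peaks. Of the 28, 13 lay in a promoter window (46.4%, interval 29.5 to 64.2), and those within 1 kb of a start had a median position of -84.5 bp. At rank 15 the nearest start was that of ZC21.10, a Rieske-domain gene, with signals of 1487.1 in replicate 1 and 1092.9 in replicate 2 (ranks 13 and 15). At act-4, an actin gene, the peak of rank 19 had 1036.4 and 946.3 (ranks 20 and 18). The peak of rank 21 in an intron of T26A8.4 had 1034.4 and 779.5 and stood at rank 21 in both replicates. The peak of rank 23, with 990.5 and 654.3 (ranks 22 and 26), lay 546 bp upstream of spo-11, which makes the meiotic double-strand breaks, and 616 bp upstream of swsn-4, the SWI/SNF ATPase gene. These 4 peaks kept nearly the same place in both libraries. Leaving out all peaks with shared sequence, the extended motif was at 28 of 170 members (16.5%), against 5.26% of 4753 peaks outside, a difference of 11.2 points (6.34 to 17.5).

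Some peaks lay at regulators of development. Of 86 homeobox genes on the list, 7 had a member of the 300 within 1 kb (8.14%, interval 4 to 15.9), where 1.97% of all protein-coding genes did. Of those 7 peaks 6 held CCAAT, 2 of them as the extended motif, and 3 held ACCGTA, where 50.3% and 24.7% of the 300 held CCAAT and ACCGTA. An intron of the Hox gene lin-39 held rank 71, 1711 bp downstream of the start, with signals of 550.2 in replicate 1 and 428.6 in replicate 2. The POU gene ceh-6 held rank 100, in its 5′ UTR at 136 bp, with 478.8 and 368.4. The caudal gene pal-1 (rank 155), the Hox gene nob-1 (rank 158), ceh-93 (rank 236) and the Hox gene mab-5 (rank 274) also had CCAAT, whereas ceh-38 (rank 164) did not. Only ceh-6, ceh-38 and ceh-93 had the summit in their promoter window. The T-box gene tbx-2 held rank 206, 89 bp upstream, with 348.8 and 288.3 and an extended motif. The intron of unc-62 at rank 31 held CCAAT and GAGAGA, with 761.7 and 517.5. All of these lay in unique sequence.

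CCAAT without the extended motif marked 46 peaks (15.3%), against 16.6% of the peaks outside the 300, a difference of -1.24 points (-4.99 to 3.36). This kind was thus no more frequent in the 300. Of the 46 peaks, 31 were intergenic and 17 lay in a promoter window. GAGAGA was at 20 of the 46 (43.5%, interval 30.2 to 57.8), against 27.3% of the 1099 peaks of this kind outside and 24.7% of the 300. These shares were read after the kinds had been set. An intron of the spalt gene sem-4 (rank 79) held CCAAT with GAGAGA, and so did rank 42, which had no gene within 1 kb and signals of 586.0 in replicate 1 and 537.1 in replicate 2.

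The 77 peaks with the extended motif in shared sequence were mostly copies of 1 dispersed repeat. The 300 formed 10 groups linked by shared 20-bp sequence, the largest of which had 59 members, the strongest at rank 12 and the weakest 2 ranks above the limit. All 59 held the extended motif, 48 held at least 2 copies of it and 17 at least 3. CCGCCC, which in the copy of rank 41 lies between the motifs, was within 50 bp of 54 of the 59 summits (91.5%) and of 41 of the other 241 members (17%). Introns held 41 of the 59 and intergenic sequence 13, and 3 lay in a promoter window. Of the 59 windows, 41 had no second match in the genome at 90% identity over 80 bp, against 280 of all 300 windows (93.3%). Close copies were thus at a minority of the 59, but were more common there than in the 300 as a whole. The most repeated window, at rank 98 in an intron of the Ras exchange factor gene sos-1, had 31 matches. A member of the group shared sequence with a median of 60 IDR peaks.

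The 41 intronic members were in 36 host genes. In the copy of rank 27, 753 bp downstream of the start of zig-1, an immunoglobulin-domain gene, signals were 814.0 in replicate 1 and 617.4 in replicate 2 (rank 27 in both). The copy of rank 24 was upstream of C55A6.12 and had 931.8 and 694.3. Those of ranks 46 and 67 lay in 1 gene, mtm-3, a myotubularin phosphatase gene, and those of ranks 104 and 116 in rsp-8, a splicing factor gene. The miRNA gene mir-1832a held the summit of rank 116. The chemoreceptor genes sre-23 (rank 220) and srt-47 (rank 272) and the collagen gene col-87 (rank 150) had copies 2180, 3493 and 4703 bp downstream of their starts.

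Outside the group, introns held further strong peaks with the extended motif in shared sequence. Rank 25 in pptr-1, a phosphatase 2A regulatory subunit gene, had 3 extended motifs and signals of 894.8 in replicate 1 and 698.5 in replicate 2. Rank 39 in tbc-14, a TBC domain gene, had 658.3 and 479.0.

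Not every genomic copy of the repeat was a peak. Aligning the 59 windows to the genome gave 510 loci of at least 60 bp, of which 370 (72.5%, interval 68.5 to 76.2) held an IDR summit and 63 (12.4%) held a summit of the 300. With no extended motif in the locus, 0 of 11 held one of the 300 and 7 an IDR summit (63.6%). With 1, 5 of 92 held one of the 300 (5.43%) and 49 an IDR summit (53.3%). With 2 the shares were 11.2% and 74.2% of 240, and with 3 or more they were 18.6% and 81.4% of 167. The IDR share was thus not lowest without the motif, though the loci there are few, and the median locus was longer with more motifs, at 94 bp with 1 and 120 bp with 3 or more. The loci were found from members of the 300, so their own copies are among them and the shares are a description. Chromosome III held 205 of the 510 loci and the X chromosome 3, none of which held an IDR summit. Reads that fit several copies can be placed in more than 1 way, and how the authors placed them is not given in the sources used here; its part in these signals was not tested.

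**Figure D4:**
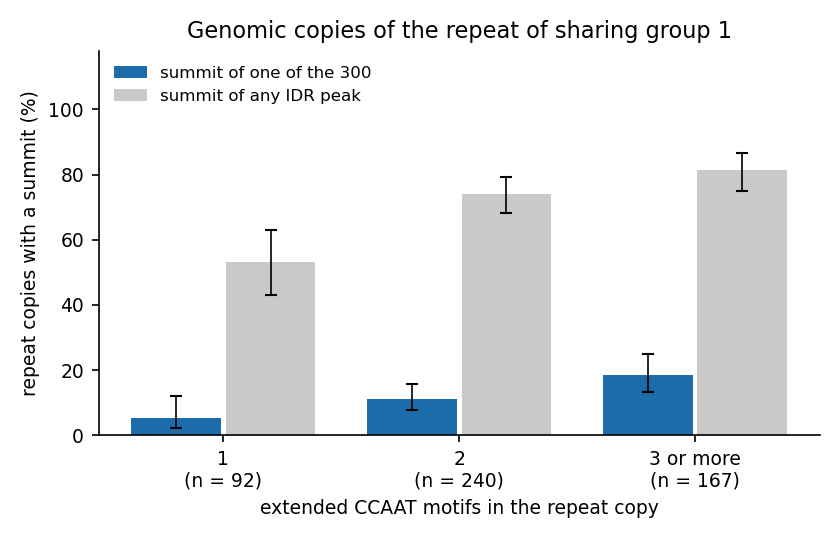
Share of genomic copies of the repeat (vertical axis, percent, with 95% Wilson intervals) that hold a summit of the 300 (blue) or of any IDR peak (grey), by number of extended CCAAT motifs in the copy (horizontal axis, with n). Copies with 3 or more motifs held a summit of the 300 in 18.6% and those with 1 in 5.43%.

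The 149 peaks without CCAAT held most of the promoter peaks, with 98 of 136. Such peaks did so outside the 300 as well, with 1970 of 2424, so this is not particular to the 300. Of the 149, 98 (65.8%, interval 57.8 to 72.9) lay in a promoter window, and 53 of the 69 divergent peaks were among the 149. Outside the 300, 1970 of the 4867 peaks without CCAAT lay in a promoter window. ACCGTA, counted with its reverse complement, led all 6-mers in these peaks by its excess over the flanks: it was at 63 of the 149 summits (42.3%) and at 2.35% of the flanks. Over all 300 it was at 74 summits (24.7%), against 4.03% outside the 300 and 12.3% in ranks 301 to 600. Among the 19 peaks without CCAAT in ranks 15 to 50, 16 held ACCGTA. In promoter windows it was at 63 of 136 members (46.3%), against 6.48% of 2424 promoter peaks outside the 300. In the 150 strongest peaks the share was 28%, and ranked in a single replicate it was 24.3% in replicate 1 and 22.3% in replicate 2. Its sites within 100 bp lay at a median of 19 bp from the summit. The 6-mer was picked because it led in these same peaks, so these shares describe them and are not a test. In the repeat group it was at 0 of 59 summits.

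Not all strong peaks of this kind were in promoters of coding genes. Rank 28 lay in an intron of drap-1, a gene for a histone-fold protein, with signals of 673.7 in replicate 1 and 725.6 in replicate 2 (ranks 38 and 22). Rank 37 had no protein-coding gene within 1 kb and had 629.6 and 538.9. In contrast, that of rank 29 lay between the starts of T26A8.4 and pdtf-1, 68 and 77 bp upstream of them, with 735.2 and 566.2. T26A8.4 thus had 2 of the 300 within 1 kb, 1 with the extended motif in an intron and 1 without CCAAT at its start.

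Other 6-mers recurred beside it. CGAGAC was at 44 of the 149 summits (29.5%) and at 56 of the 300 (18.7%), against 7.84% outside. CGTCTC was at 46 of the 149 (30.9%) and at 21.3% of the 300, against 17.7% outside, a difference of 3.65 points (-0.714 to 8.71). In ranks 301 to 600 CGAGAC was at 18.7% of peaks and CGTCTC at 24.7%, so neither level is particular to the 300. CGAGAC or CGTCTC was at 72 of the 149, and 32 of those also held ACCGTA. With GAGAGA counted too, 113 of the 149 (75.8%) held at least 1 of these 4 sequences and 36 held none. GAGAGA was at 30.2% of the 149, against 31.7% of the peaks without CCAAT outside the 300. In those peaks outside, CGTCTC was at 20%, CGAGAC at 9.29% and ACCGTA at 4.13%. The share with at least 1 of the 4 was not counted there, so the 75.8% has no comparison.

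Ribosomal protein genes were the largest named class near the 300. Of 83 cytosolic ribosomal protein genes, 39 had a member within 1 kb (47%, interval 36.6 to 57.6), where 1.97% of all protein-coding genes did. Within 1 kb of some IDR peak were 78 of the 83 (94%), where 28.5% of all protein-coding genes were. The 39 comprised 21 rpl and 16 rps genes with the ubiquitin fusion genes ubq-2 and ubl-1, at 36 peaks from rank 20 to rank 299. The summit was upstream, at a median of -287 bp, and 30 of the 39 genes had it 200 to 500 bp from the start. CCAAT was at 4 of the 36 peaks, the extended motif at 1 and ACCGTA at 23 (63.9%, interval 47.6 to 77.5). In promoter windows with no ribosomal protein gene within 1 kb, ACCGTA was at 40 of 100.

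At rpl-3, which codes for large-subunit protein uL3, the peak of rank 20 had signals of 1136.7 in replicate 1 and 677.4 in replicate 2 (ranks 18 and 25). That of rpl-20 (rank 26, 287 bp upstream) had 878.1 and 595.9. The peaks of rpl-15 (rank 30), rpl-11.2 (rank 35) and rpl-35 (rank 40) lay 347, 359 and 453 bp upstream and had 794.3, 695.5 and 697.6 in replicate 1 and 488.8, 529.3 and 424.8 in replicate 2. All 5 ranked 62 or better in each replicate. The peak of rank 34 lay between rps-20 and ekl-4, a gene for a DMAP1-like protein, and rank 48 between rps-1 and the translational repressor gene ifet-1. Of the 36 peaks, 30 were in the top 300 of both replicates. No mitochondrial ribosomal protein gene was within 1 kb of the 300, of 70 annotated. Some IDR peak was near 41 of the 70 (58.6%), where 28.5% of all protein-coding genes had one.

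Sequence shared in these promoters was short. The second largest group had 9 members, from rank 29 to rank 259, all in promoter windows and none with the extended motif. They share the 12-base element AGTGTTACCGTA, which ends in ACCGTA and is printed above as its reverse complement. With up to 1 mismatch it was within 100 bp of 24 of the 300 summits (8%), all in promoter windows, and of 12 of 6632 outside (0.181%). It was at 0 of the 300 in the lower-coordinate flank. Ribosomal protein genes were near 11 of the 24. The others included the promoters shared by npp-3, a nucleoporin gene, and top-2, a topoisomerase gene (rank 74), by pas-4, a proteasome gene, and rpb-3, an RNA polymerase II gene (rank 90), and by rpn-5 and the cohesin gene scc-1 (rank 259). A further 12-base sequence, CGTGGCGAGACC, was within 100 bp of 24 summits, 23 of them in promoter windows, and of 1.15% of peaks outside. Both were picked for recurring in the 300.

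The third largest group, ranks 14, 165 and 182, lay upstream of wwp-1, of F01G4.6, a mitochondrial phosphate carrier gene, with pfd-1, and of icd-2, in that order. All 3 were in promoter windows.

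Genes of other basic processes were represented mainly by promoter peaks. The counts below stand beside the 1.97% of all protein-coding genes that had a member of the 300 within 1 kb. The lists go by symbol and leave out genes of the same processes, so the counts are of listed genes and not of whole classes. The respiratory list lacks, for example, Y82E9BR.3 (rank 86), ndub-8 (rank 152) and nduc-2 (rank 202). Translation factors had 6 of 40 genes within 1 kb, all with the summit in the promoter window and 1 with CCAAT. The peak of rank 38 lay 392 bp upstream of the elongation factor gene eef-1A.1 and 149 bp upstream of rfc-4, which codes for a clamp loader subunit, with signals of 672.6 in replicate 1 and 470.0 in replicate 2. That of eef-2 was rank 64, 14 bp upstream. Listed respiratory chain and ATP synthase genes had 6 of 44, and none of their 6 peaks held CCAAT while 4 held ACCGTA. Of all 136 members in a promoter window, 98 lacked CCAAT and 63 (46.3%) held ACCGTA, so these small counts set the list apart from no other promoter peaks. The peaks at cox-5B (rank 16, 61 bp upstream) and cox-5A (rank 33, 286 bp upstream), both for cytochrome c oxidase subunits, had 1367.8 and 742.8 in replicate 1 and 1052.6 and 511.7 in replicate 2. Rank 33 shared sequence with rank 20 of rpl-3. Of 33 proteasome genes 3 were included, the strongest being pas-4 at rank 90, and next rpn-3 at rank 168, which shares its promoter with hsp-110. Of 31 secretory pathway genes 5 were included, led by sec-61.B and trap-3, which share the peak of rank 75, and sec-61.G (rank 136). Chaperones outside the endoplasmic reticulum had 9 of 33 genes, with cct-8 (rank 87) and cct-1 (rank 94), subunits of the chaperonin ring, the strongest beyond rank 14.

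Of 21 genes for endoplasmic reticulum folding and stress, 6 were included (28.6%, where 1.97% of all protein-coding genes were), all at peaks among the first 14. Those 6 peaks all held the extended motif, and 0 of 6 held ACCGTA, where the first 14 peaks as a whole had the extended motif at 13 and ACCGTA at 1. Beyond rank 14, serp-1.1, which codes for a small stress-associated protein of the same compartment, had rank 17 with ACCGTA and no CCAAT, with signals of 1146.7 in replicate 1 and 974.6 in replicate 2 (rank 17 in both).

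Smaller numbers came from other lists, several of them near or below the 1.97% of all protein-coding genes, and say nothing about those lists. Splicing factors had 5 of 30 genes, led by the repeat copies in rsp-8 and by prp-8 (rank 110, 331 bp upstream). Histone genes had 3 of 81, htz-1 at rank 51 in a promoter shared with wapl-1, and his-37 with his-41 at rank 181. Cell cycle and replication genes had 2 of 32, nuclear hormone receptors 2 of 269 with nhr-49 at rank 133 and nhr-1 at rank 278, and ubiquitin conjugation genes 3 of 52 with ubc-25 at rank 230 and ubc-3 at rank 261. The vacuolar ATPase gene vha-8 (rank 187), the small GTPase gene rab-11.1 (rank 189, with rpl-7) and the collagen gene col-38 (rank 221, with rpl-5) each came from a list with 1 or 2 members. Polycomb-like repressors had 2 of 8 genes, sor-1 and sop-2, and cilia genes 1 of 43, ift-43, all at peaks among the first 14. T-box factors had 1 of 19 and actin and muscle genes 1 of 32, both named above. The lists of aminoacyl-tRNA synthetases (31 genes), autophagy genes (25) and the 4 NF-Y subunit genes had 0. C34C12.1, whose product is named autophagy-related protein 14, was not on its list and lay within 1 kb of rank 70. Among cell fate and chromatin genes of ranks 15 to 40, lin-9, a MuvB subunit gene, had rank 32 with 760.0 in replicate 1 and 503.8 in replicate 2, and tasp-1, a protease gene, had rank 36 with 702.9 and 466.7.

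Near the 300 were 4 of 261 annotated miRNA genes and 87 of 7764 of the ncRNA type, beside 393 of 19973 protein-coding genes (1.97%). The miRNA gene mir-48, a let-7 relative that times larval development, had the peak of rank 22, 214 bp upstream of its annotated start and with no other gene within 1 kb, with signals of 880.8 in replicate 1 and 882.0 in replicate 2 (ranks 25 and 20). Of 18 annotated sls-2 genes, which code for SL2, the spliced leader added to downstream genes of operons, 5 were within 1 kb. No other of the 129 annotated snRNA genes was. At 4 of them the summit was 26 to 38 bp upstream of the start: sls-2.4 (signal 847.7), sls-2.1 at rank 107, sls-2.8 at rank 120 and sls-2.2 at rank 194. Their peaks had 509.5, 470.2, 462.0 and 381.7 in replicate 1 and 339.9, 355.3, 313.4 and 267.5 in replicate 2, with no CCAAT. The first, second and last of these formed the fourth sharing group. The strongest peak beyond rank 14 near genes of the ncRNA type was rank 16, with F26E4.16 and F26E4.14 beside cox-5B. The strongest lincRNA and snoRNA genes were linc-78 (rank 35) and K11H12.12 (rank 30), both beside ribosomal protein genes, and the strongest pseudogene was F07H5.4 (rank 115).

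Chromosomes were unevenly represented. Chromosome III held 94 of the 300 (31.3%), against 19.2% of the peaks outside, a difference of 12.1 points (7.05 to 17.7), and 13.7% of the nuclear bases. The X chromosome held 29 (9.67%), against 17.4%, a difference of -7.72 points (-10.7 to -3.75). Without the repeat group, of which 22 copies were on chromosome III and 0 on X, chromosome III held 72 of 241 (29.9%) and X 29 of 241 (12%). The chromosomes were compared after their counts had been seen.

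Both replicates placed the 300 near the top. Since the IDR list was built from both libraries, this is a description and no test. Each of the 300 summits fell in a region of both relaxed lists. In replicate 1, 278 of the 300 (92.7%) ranked 300 or better, and in replicate 2, 264 (88%) did. Both held for 242 (80.7%), for each of the first 100 and for 47 of the last 100. Of the other 58, 22 fell below rank 300 in replicate 1 alone and 36 in replicate 2 alone. Across the 300 the ranks had a Spearman correlation of 0.787, across peaks and not replicates, and the median gap between a peak's ranks was 33.0.

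The 5 lowest replicate ranks were at ranks 146 to 294. At mdl-1, which codes for a Mad-like protein, the peak of rank 294 had ranks 528 and 147, with signals of 242.8 in replicate 1 and 316.1 in replicate 2. An intronic peak at Y41G9A.17 (rank 241) had ranks 156 and 458 with 408.2 and 197.7. Rank 146, with no gene within 1 kb, had ranks 81 and 441 with 520.7 and 202.4. The peaks at unc-108 (rank 268) and tub-2 (rank 271) had ranks 180 and 437, and 425 and 149. All 300 ranked 528 or better in both.

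**Figure D5:**
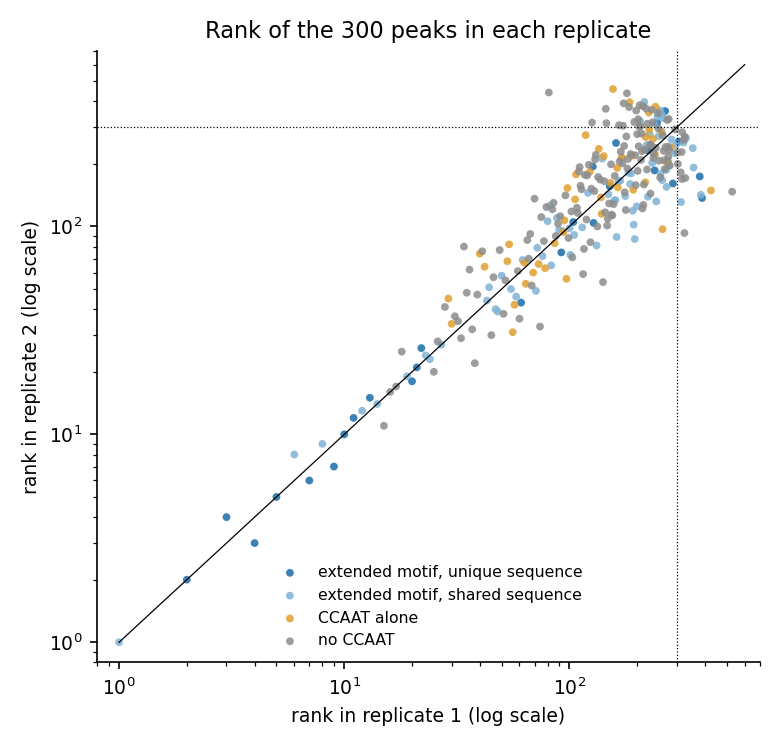
Rank of each of the 300 peaks in the relaxed list of replicate 1 (horizontal axis) and replicate 2 (vertical axis), both on log scales, coloured by the sequence at the summit. The solid line is equal rank and the dotted lines rank 300; 242 peaks lie inside both dotted lines and the lowest rank is 528.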

How the data were processed

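Peaks came from deposited narrowPeak lists on ce11: the IDR list derived by the authors from both replicates, and the relaxed list of each replicate called against a control, per the labels and deposited descriptions. Their signal column is the authors' own on an unstated scale, and the deposited −log10 q value is at its ceiling. Aligner, caller, filters: not given in the sources used here. Depth is unknown, and signal was used only to rank peaks within a list. The 300 peaks and the 25 gene lists (by symbol) were chosen with earlier results of these data known.

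A summit under several features took the class coding exon first, then UTR (5′ before 3′), then intron, then noncoding gene, and was otherwise intergenic, with Ensembl release 115 genes on WBcel235, the assembly of ce11, leaving out piRNA genes. Sequences and products are from RefSeq (WBcel235). Motifs were sought on both strands within 50 bp, and copies with blastn 2.17.0 (expect value 1e-10). Shares have 95% Wilson intervals and differences Newcombe intervals. With 1 group there is no test across samples, and biological replicates enter only as ranks and signals. A peak's replicate rank is that of the strongest relaxed region under its summit. Named genes are the nearest within 1 kb for ranks 15 to 40, the 2 strongest peaks per list beyond rank 14, the strongest per class and noncoding type, the 3 largest sharing groups, the 5 lowest replicate ranks and the edge; other named genes, and the 4 kinds, the 6-mers, the elements, the repeat loci and the further printed sequences, were chosen after values were seen. Printed sequences leave out peaks on chromosome I and windows that reach a UTR. Alternatives varied the number of peaks, replicates, shared sequence, windows and distances. Scripts used matplotlib 3.10.9, scipy 1.17.1, pandas 2.3.3, numpy 2.4.6 and Python 3.11.15 and were tested on simulated data.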

Additional observations from a re-analysis of the deposited data

How the results depend on the processing

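Of 81 alternatives, 45 stayed within the counting interval and 36 did not; those 36 are given here as percentages of peaks. With the 500 strongest peaks, CCAAT was at 42.4, the extended motif at 28.6, ACCGTA at 19.8 and the top 300 of both replicates at 48.6; with the 150 strongest the last was 99.3, and with a rank limit of 600 it was 100. Without peaks that share sequence, intergenic summits were 67.6, promoters 54.1, CCAAT 37.6, the extended motif 16.5 and GAGAGA 32.4. Without the largest sharing group, an alternative chosen after seeing the data, they were 69.3, 55.2, 38.2 and 19.1 for the first 4, with ACCGTA at 30.7 and shared sequence at 29.5. A protein-coding gene lay within 500 bp of 77.7 and within 2000 bp of 91.3. Promoters were 25 from 200 bp upstream to 100 bp downstream, 54.3 from 1000 bp upstream, and 53 with all gene types. Within 25 bp, CCAAT was 41.3, the extended motif 29.3 and GAGAGA 13; within 100 bp CCAAT was 57.3 and GAGAGA 36.3. In the lower and higher flanks CCAAT was 15.3 and 20, the extended motif 1.33 and 1, and GAGAGA 7 and 7.33. Shared sequence was 98 at 15 bp, 15.3 at 30 bp and 34.7 within 50 bp.

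Leaving out each replicate, intergenic summits were 60 to 61.3, protein-coding genes 83.7 to 85.3, promoters 42.7 to 47.3, CCAAT 48.7 in both, the extended motif 32.3 to 33.7, GAGAGA 23.3 to 25.3, shared sequence 41 to 43.7, ACCGTA 22.3 to 24.3 and chromosome III 28.7 to 32. No paired analysis was possible because there is 1 group. Depth is unknown, so signal carries no counting error. The intervals treat peaks as independent, which copies of a repeat are not.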
